A study of Mus musculus with 5 samples.

Results

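The lungs of mice given control medium (CM) were compared at 2 times after cancer cell injection, day 11 and day 16. The comparison used the authors' table of single cells, in which each cell carries a library, a cell class and a cell type. All cells of the CM day 11 and CM day 16 libraries entered, except those that the authors marked as doublets or unknown. This left 7305 of the 22118 annotated cells in the 5 libraries analysed here, 3738 at day 11 and 3567 at day 16. In the day 11 library 245 doublets and 24 unknown cells of 4007 were set aside, and in the day 16 library 232 and 36 of 3835.

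The study profiled lungs that carried metastases of 4T1, a mammary carcinoma line of BALB/c mice, by sequencing RNA of single cells in droplets. The mice were female BALB/c, 6 weeks of age at the first injection, and received 200 µL of CM into a vein 3 times a week for 3 weeks. They then received 25000 4T1 cells carrying CD90.1, an allele of Thy1 that is absent from BALB/c mice and so marks the injected cells. Mice of the day 11 group were 10 weeks old and those of the day 16 group 11 weeks old when lungs were taken. The other arm of the study was treated in the same way with medium in which pieces of 4T1 tumors had been kept (tumor-secreted factors, TSF), and gave 2 libraries at day 11 (a and b) and 1 at day 16. A library came from the cells of 3 mice, dissociated and pooled. All groups therefore carried 4T1 cells, and cancer cells given by vein reach the lung without a primary tumor.

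The lung exchanges gas across flat alveolar type 1 cells, while cuboidal alveolar type 2 cells make surfactant and renew the epithelium. Capillary endothelial cells line the other side of that barrier, pericytes wrap the capillaries, and fibroblasts hold the wall. Alveolar macrophages live in the air space, whereas monocytes and neutrophils arrive from blood, where they are held in number in the lung's small vessels.

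With 1 library at each time there was no replicate of either group, and no test between the times was made. Each share has an exact 95% interval, and each ratio of shares an exact conditional one. These intervals hold the counting error alone, and leave out what differs between mice, dissociations or libraries. The TSF day 11 libraries a and b served as the only measure of the spread between libraries of 1 group, although they may come from the same pool of mice. A share is a part of the recovered cells, so a higher share of a type and fewer cells of the others cannot be told apart.

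Depth differed between the libraries. The deposited counts summed to 13240822 unique molecular identifiers (UMIs, each counting 1 captured RNA molecule) at day 11 and 14735974 at day 16. Annotated cells held a median of 2223 UMIs at day 11 and 2645 at day 16, and 2109 to 2301.5 in the TSF libraries. The libraries of CM day 11 and CM day 16 shared 14 cell barcodes, fewer than the 23 to 46 shared by the other pairs. The CM libraries also had the fewest cells, 4007 and 3835 against 5197 to 5580 in the TSF libraries. The labels of the cell types other than cancer cells could not be checked against marker genes here, because no expression values of those cells were used.

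The immune and non-immune compartments had near-equal shares at both times, while the types within them differed. Immune cells were 51.8% of annotated cells at day 11 and 51.1% at day 16 (ratio 0.986, interval 0.925 to 1.05). Of all annotated cells, 12.4% of cells would have to be assigned another type for the CM libraries to have equal makeup. The same distance was 2.84% between TSF day 11 libraries a and b, and 5.74% and 6.96% between CM day 11 and each of them. It was 28.0% between CM day 16 and TSF day 16. The CM times thus lay further apart than the day 11 libraries of the arms did, and less far than the arms at day 16.

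By the authors' 12 classes, the interval of the ratio lay above 1 for 6, below 1 for 3 and included 1 for 3. Above 1 were cancer cells, the joint class of myofibroblasts and pericytes (3.85% and 5.72%, ratio 1.49, 1.19 to 1.85), NK cells, granulocytes (4.47% and 6.00%, 1.34, 1.09 to 1.65), T cells (15.3% and 18.4%, 1.20, 1.07 to 1.35) and fibroblasts. Below 1 were alveolar cells (10.8% and 6.14%, 0.571, 0.482 to 0.675), B cells and monocyte-derived cells (14.0% and 11.1%, 0.794, 0.695 to 0.906). Endothelial cells, the joint class of ciliated and club cells (0.873, 0.559 to 1.36) and plasmacytoid dendritic cells included 1. The classes that are made of 1 type, and the types of the others, follow by their place in the lung.

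Of 21 annotated types, 20 had at least 20 cells in the CM libraries together. A share more than 1.5 times higher at day 16 was found in 3 of the 20 (15.0%), which were cancer cells, pericytes and DN T cells. A share more than 1.5 times lower was found in 5 (25.0%), which were ACT2, monocytes, ciliated cells, plasmacytoid dendritic cells and the type labelled M1 Macro/DC. The interval of the ratio lay above 1 for 6 types, below 1 for 5 and included 1 for 9. Between TSF day 11 libraries a and b the ratios ran from 0.616 to 1.14, 1 type passed 1.5-fold, and no interval lay apart from 1.

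**Figure D1:**
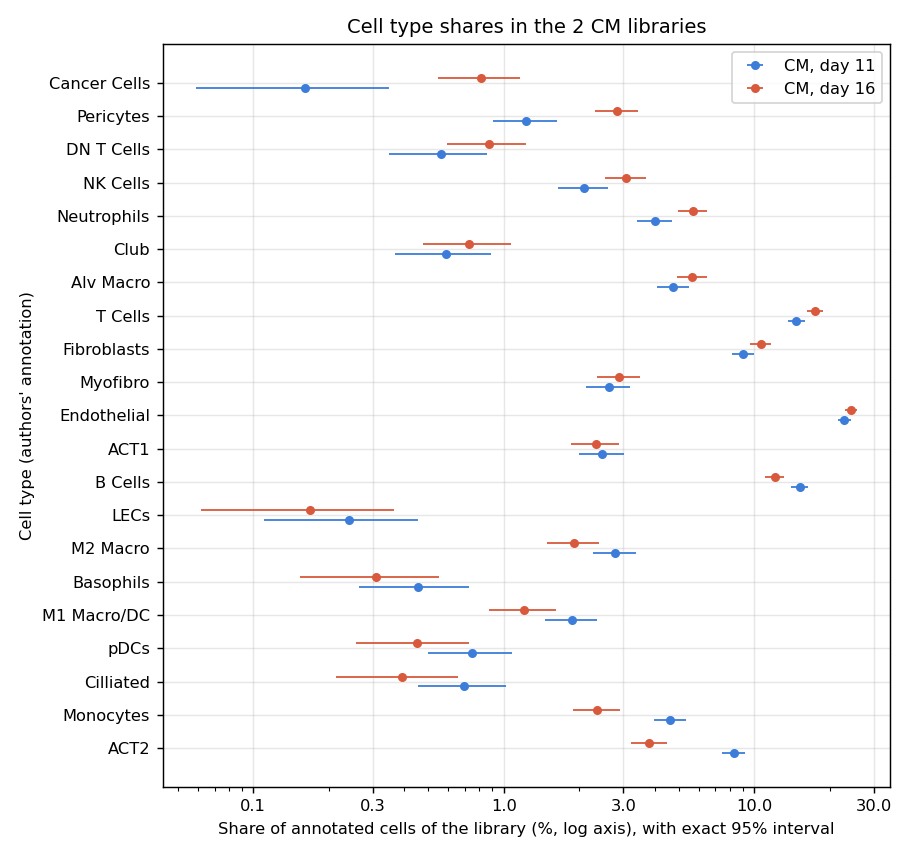
Share of annotated cells (percent, log axis) of each cell type in the CM day 11 (blue) and CM day 16 (red) libraries, with exact 95% intervals that cover counting error only. Types are ordered by their ratio, from cancer cells at the top, with 6 and 29 cells, to ACT2 at the bottom, with 310 and 136.

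Cancer cells had the highest ratio of all types. There were 6 of them among 3738 cells at day 11 (0.161%, 0.0589 to 0.349) and 29 among 3567 at day 16 (0.813%, 0.545 to 1.17). The ratio was 5.07 (2.07 to 14.9). In the TSF arm cancer cells were 0.626% and 0.895% of libraries a and b at day 11 and 2.84% at day 16, ratios of 4.54 and 3.17 that lie within the CM interval. The smallest group was therefore CM day 11, whose 6 cells set the width of the interval.

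The cancer cells also held much more RNA than other cells. Their median was 20760 UMIs at day 11 (7324 to 38633) and 27679 at day 16 (973 to 51807). Because of this they made up 1.20% of the UMIs of annotated cells at day 11 and 5.51% at day 16. They fell into 2 fine clusters of the authors, numbered 120 and 131. Cluster 131 held 2 of the 6 cells at day 11 and 23 of the 29 at day 16, while cluster 120 held 4 and 6. In the TSF libraries the cells of cluster 131 numbered 15 of 32 and 19 of 43 at day 11 and 54 of 139 at day 16, so only the CM day 16 library had most of its cancer cells there. In CM day 16, the median depth was 22090 UMIs in cluster 120 and 33177 in cluster 131.

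Gene values were at hand for the 29 cancer cells of CM day 16 and not for the 6 of CM day 11, so the label could be checked at 1 time only. The values are the number of cells with a UMI and the authors' mean count per 10000 UMIs of a cell. Krt8 and Krt18, the keratin pair of simple epithelia that lies on chromosome 15 at 101996698 to 102004482 and 102028180 to 102032027 (GRCm38), were seen in 29 and 28 cells with means of 10.3 and 18.3. The keratin Krt7 was seen in 18 cells (1.45) and Krt19 in 9. The epithelial adhesion genes Epcam and Cdh1 were seen in 8 and 2 cells. The reporter CD90.1, by which the methods say that cancer cells were recognised, had a UMI in 2 of 29 cells (6.90%, 0.846 to 22.8) after correction. All 7 carcinoma markers were detected, with a summed mean of 30.7, and 3 of them in most cells.

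Markers of other cells were mostly at 0 in the same 29 cells. Ptprc, the pan-leukocyte phosphatase, and Lyz2, Tyrobp and Cd3e had no UMI in any cell, which by the limit of 3 counts allows a share of 10.3% with a UMI for each, and does not limit how many cells express the gene. Cd74, the invariant chain of MHC class II, was seen in 23 cells with a mean of 21.5, and makes up nearly all of the summed leukocyte value. Cd79a of B cells was seen in 1 cell. All 4 neutrophil markers (S100a8, S100a9, Csf3r and Retnlg) and all 3 pericyte markers (Pdgfrb, Cspg4 and Notch3) were at 0. The endothelial, fibroblast, and alveolar and airway lists summed to 0.0588, 0.498 and 0.113, of which Pdgfra, a growth factor receptor of fibroblasts, was the most frequent with 13 cells (0.407). In these lists Cldn5, Vwf, Col1a1, Col1a2, Sftpc, Ager, Hopx and Foxj1 were at 0, while Cdh5 was seen in 3 cells, Dcn in 2 and Pecam1 and Scgb1a1 in 1 each. Markers of dividing cells were present, with Cdk1 in 19 cells, Top2a in 17, Mki67 in 11 and Ccnb1 in 8. The authors had already subtracted ambient RNA from these counts, so a 0 is a corrected value.

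The lowest ratio of the 20 types was that of an alveolar epithelial type. The type labelled ACT2, read here as alveolar type 2 cells, numbered 310 at day 11 (8.29%, 7.43 to 9.22) and 136 at day 16 (3.81%, 3.21 to 4.49), a ratio of 0.460 (0.373 to 0.564). The type labelled ACT1, read as alveolar type 1 cells, numbered 92 (2.46%) and 83 (2.33%), with a ratio of 0.945 (0.694 to 1.29). There were 3.37 ACT2 cells for each ACT1 cell at day 11 and 1.64 at day 16. This pair ratio was 3.91 and 3.92 in the TSF day 11 libraries and 2.06 at TSF day 16. ACT2 thus had lower shares at the later time in both arms, with ratios of 0.513 and 0.552 after TSF, and ACT1 lay near 1 in both with all cells counted. With granulocytes taken out of every library, the ACT1 ratios were 0.961 in CM and 1.31 and 1.41 in TSF. Those of ACT2 were then 0.467 in CM and 0.690 and 0.740 in TSF. The ACT2 cells held 13.2% of the UMIs of annotated cells at day 11 and 6.68% at day 16.

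The airway epithelium was too sparse to place. Ciliated cells, which beat mucus out of the airways, numbered 26 at day 11 and 14 at day 16 (ratio 0.564, 0.272 to 1.12). Club cells, secretory cells of the small airways, numbered 22 and 26 (1.24, 0.675 to 2.29). Both intervals include 1, and club cells were also the type that passed 1.5-fold between TSF libraries a and b.

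Among the cells of the vessel wall, pericytes stood apart. They numbered 46 at day 11 (1.23%, 0.902 to 1.64) and 101 at day 16 (2.83%, 2.31 to 3.43), a ratio of 2.30 (1.61 to 3.34). Myofibroblasts, contractile cells that the authors placed in 1 class with pericytes, numbered 98 and 103 (1.10, 0.827 to 1.47). The pericytes for each myofibroblast were 0.469 at day 11 and 0.981 at day 16. In the TSF libraries the same ratio was 0.920, 0.865 and, at day 16, 0.802. The pericyte shares of the TSF libraries were 2.46% and 2.27% at day 11 and 2.06% at day 16, all nearer to CM day 16 than to CM day 11. CM day 11 was therefore the library that stood apart in pericytes.

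Endothelial cells were the largest type at both times. They numbered 855 (22.9%) at day 11 and 868 (24.3%) at day 16, and the interval of the ratio of 1.06 (0.967 to 1.17) includes 1. In the TSF arm their share was 24.6% and 25.2% at day 11 and 13.3% at day 16. Fibroblasts numbered 337 (9.02%) and 378 (10.6%), with a ratio of 1.18 (1.01 to 1.37). The fibroblast interval included 1 among non-immune cells alone (1.16, 0.997 to 1.35), without alveolar cells (1.12, 0.962 to 1.30) and with at least 2000 UMIs (1.00, 0.843 to 1.19). The cells labelled LECs, at 9 and 6, were under the 20 cells set for a ratio.

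Within the myeloid cells the types went different ways. Monocytes numbered 173 at day 11 (4.63%, 3.98 to 5.35) and 84 at day 16 (2.35%, 1.88 to 2.91), a ratio of 0.509 (0.387 to 0.664). The types labelled M1 Macro/DC and M2 Macro were lower too. The former numbered 70 and 43 (0.644, 0.430 to 0.954) and the latter 104 and 68 (0.685, 0.497 to 0.939). Alveolar macrophages numbered 177 (4.74%) and 202 (5.66%), with a ratio of 1.20 (0.973 to 1.47) whose interval includes 1. There were 1.02 alveolar macrophages for each monocyte at day 11 and 2.40 at day 16. M2 Macro cells for each alveolar macrophage were 0.588 and 0.337. The TSF ratios of M2 Macro were 1.39 and 1.58 and those of monocytes 0.797 and 0.908. With granulocytes taken out of every library, the TSF ratios of monocytes were 1.07 and 1.22.

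Neutrophils, the short-lived phagocytes of the blood, had a higher share of annotated cells at day 16. They numbered 150 (4.01%, 3.41 to 4.69) and 203 (5.69%, 4.95 to 6.50), a ratio of 1.42 (1.14 to 1.76). Neutrophils lay close to the 800 UMIs at which the deposited cells start, with a lower quartile of 953 and a median of 1142 at day 11. At day 16 these were 1083 and 1299. Whether the deeper day 16 library let more neutrophils pass that limit was not tested. Only 12 and 16 neutrophils had at least 2000 UMIs, with a ratio of 1.20 (0.534 to 2.79) that no longer lay apart from 1. The granulocyte class, which also held 13 and 7 basophils of that depth, stood at 0.831 among such cells. Its interval of 0.4505 to 1.53 includes 1. In the TSF arm they were 4.26% and 4.54% of cells at day 11 and 28.7% at day 16, ratios of 6.74 and 6.33. Both TSF shares at day 11 lay inside the CM day 11 interval, and the TSF share at day 16 lay far outside the CM day 16 interval. Neutrophils for each monocyte were 0.867 and 2.42 in the CM libraries. Basophils numbered 17 and 11 (0.678, 0.287 to 1.53). Plasmacytoid dendritic cells, the main makers of type I interferon, numbered 28 and 16 (0.599, 0.303 to 1.15).

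Among lymphocytes, T and NK cells had higher shares and B cells a lower one. T cells numbered 551 (14.7%) and 625 (17.5%), a ratio of 1.19 (1.06 to 1.34). NK cells, lymphocytes that kill without antigen receptors, numbered 78 (2.09%) and 110 (3.08%), a ratio of 1.48 (1.10 to 2.00). In the TSF libraries NK cells were 3.48% and 4.00% at day 11 and 2.90% at day 16. CM day 11 thus had the lowest NK share of the libraries, as it did for pericytes. The cells labelled DN T numbered 21 and 31 (1.55, 0.861 to 2.83). B cells numbered 568 (15.2%) and 430 (12.1%), a ratio of 0.793 (0.698 to 0.901). T cells for each B cell were 0.970 at day 11 and 1.45 at day 16, and in the TSF libraries 0.997, 0.917 and 1.42.

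The order of B and T cells depended on depth. B cells had a median of 1520 UMIs at day 11 and 1864.5 at day 16, close to 2000. Cells with at least 2000 UMIs numbered 94 of the B cells (16.5%) at day 11 and 185 (43.0%) at day 16, against 256 of the T cells (46.5%) and 444 (71.0%). Among cells with at least 2000 UMIs the B cell ratio was 1.78, above 1, and T cells for each B cell were 2.72 and 2.40. The lower B cell share was thus found with all annotated cells and not with the deeper cells alone. The 1.78 counts only cells that passed 2000 UMIs, so depth and number of B cells cannot be told apart in it.

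**Figure D2:**
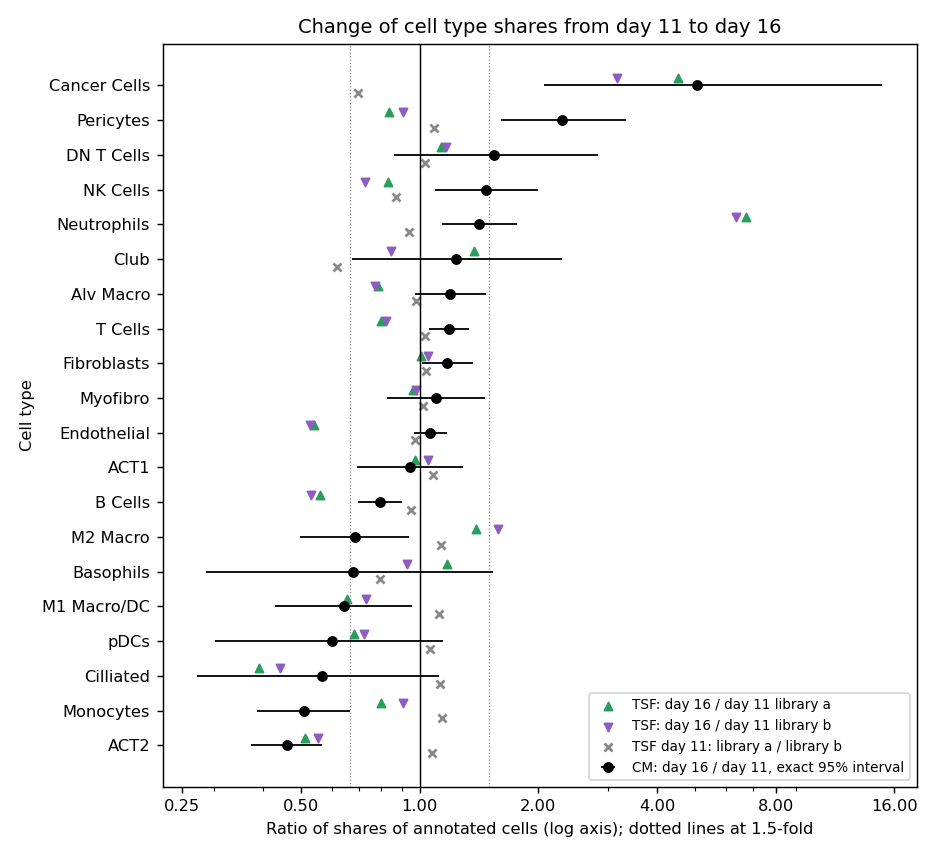
Ratio of each type's share at day 16 over day 11 (log axis), with CM as black points and exact 95% intervals, TSF day 16 over libraries a and b as triangles, and TSF day 11 library a over b as crosses. ACT2 lies to the left of 1 in both arms, pericytes and T cells to the right of 1 in CM alone, and neutrophils at 1.42 in CM and at 6.74 and 6.33 in TSF.

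In the TSF arm, 10 of the 20 types had both ratios on the same side of 1 as in CM and 7 had both on the other side. The arms share no library. Neutrophils filled 28.7% of the TSF day 16 library, and shares within a library add up to the whole. When granulocytes were taken out of every library, the TSF ratios of pericytes became 1.13 and 1.22, those of T cells 1.07 and 1.10, and those of alveolar macrophages 1.06 and 1.03. These TSF ratios were below 1 with all cells counted and above 1, the side of the CM ratios, without granulocytes. Monocytes moved away from CM instead, with TSF ratios of 0.797 and 0.908 with all cells and 1.07 and 1.22 without granulocytes. The CM ratio of monocytes without granulocytes was 0.517. M2 Macro remained above 1 after TSF, at 1.87 and 2.12, and endothelial cells below 1, at 0.727 and 0.707.

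**Figure D3:**
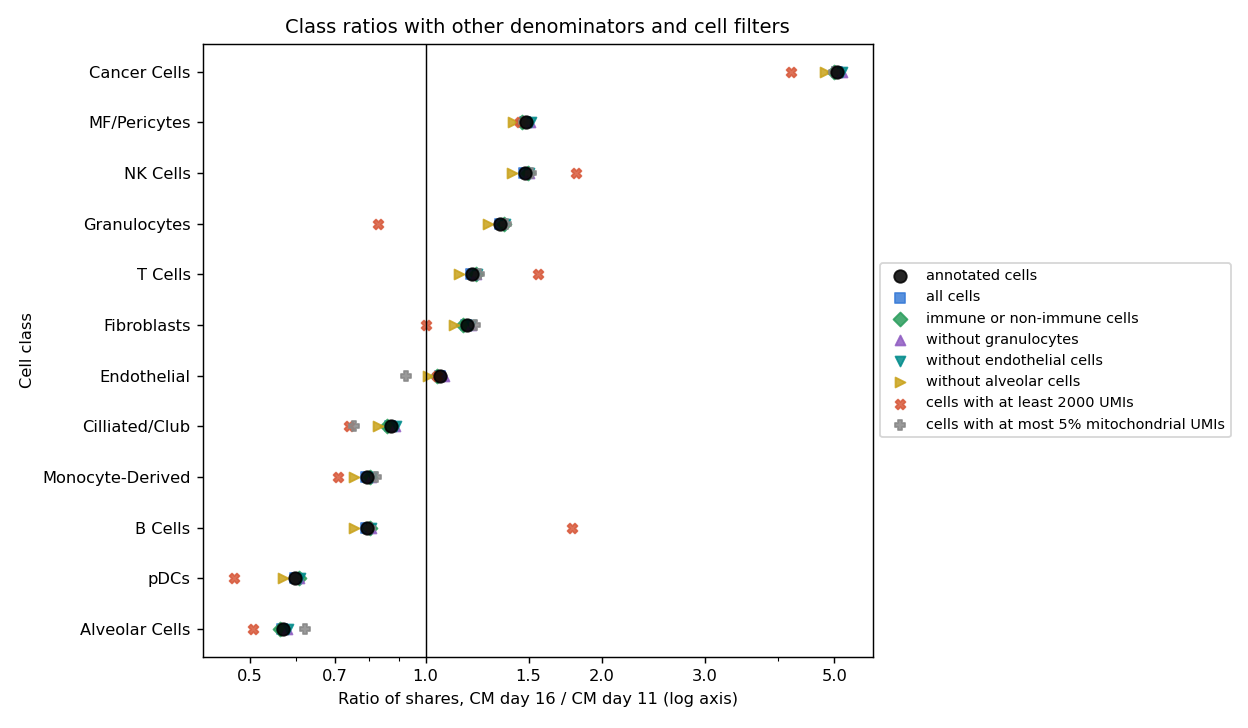
Ratio of each class's share at CM day 16 over CM day 11 (log axis) with all annotated cells (black) and with 7 other denominators or cell filters. Symbols of a class overlap for most settings, most of which change the denominator alone and so shift all ratios by nearly the same factor. B cells stand at 0.793 with all annotated cells and at 1.78 with cells of at least 2000 UMIs, and granulocytes at 1.34 and 0.831. The interval of that last granulocyte ratio, 0.4505 to 1.53, includes 1.

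Cells of nearly every type held more UMIs at day 16. The median UMI count of a type was higher in 18 of 20 types, with ratios of 0.907 to 1.64 and a median of 1.22, against 1.19 over all annotated cells. Between TSF libraries a and b the ratios of the same 20 types ran from 0.715 to 1.12, and from 0.830 for types with at least 20 cells in each. Most of the 20 types had a lower median in library a than in library b. Alveolar macrophages had 3162 UMIs at day 11 and 5170 at day 16, a ratio of 1.64, and a median of 1390 and 2015.5 genes. In the TSF libraries they had 2809, 3024.5 and, at day 16, 4374.5 UMIs. Ciliated cells had 5829 and 9549.5 UMIs, also a ratio of 1.64, with 5089 at TSF day 16. Alveolar type 1 cells had 3641.5 and 3567, and with basophils were the 2 types without a higher value. Library depth and RNA content per cell cannot be told apart here.

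The share of UMIs from mitochondrial genes, which is high in stressed or broken cells, moved in both directions. Its median was higher at day 16 in 8 types, lower in 11 and equal in 1. Endothelial cells had 2.58% at day 11 and 3.30% at day 16, and cells over 5% made up 10.6% and 24.0% of them. In TSF the endothelial medians were 2.60%, 2.82% and 3.48%, and cells over 5% made up 11.8%, 13.7% and 27.3%. Ciliated cells had 3.29% and 5.11%, club cells 2.21% and 4.42%, and alveolar macrophages 2.78% and 2.10%. The medians of library a minus those of library b ran from -1.82 points in ciliated cells to 0.804 in club cells. The ciliated difference between the CM times was 1.83 points, about as far from 0 as that between a and b. Neutrophils had a median of 0 at both times, and 55.3% and 74.4% of them had no mitochondrial UMI, against 77.5%, 72.5% and 21.6% in the TSF libraries.

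**Figure D4:**
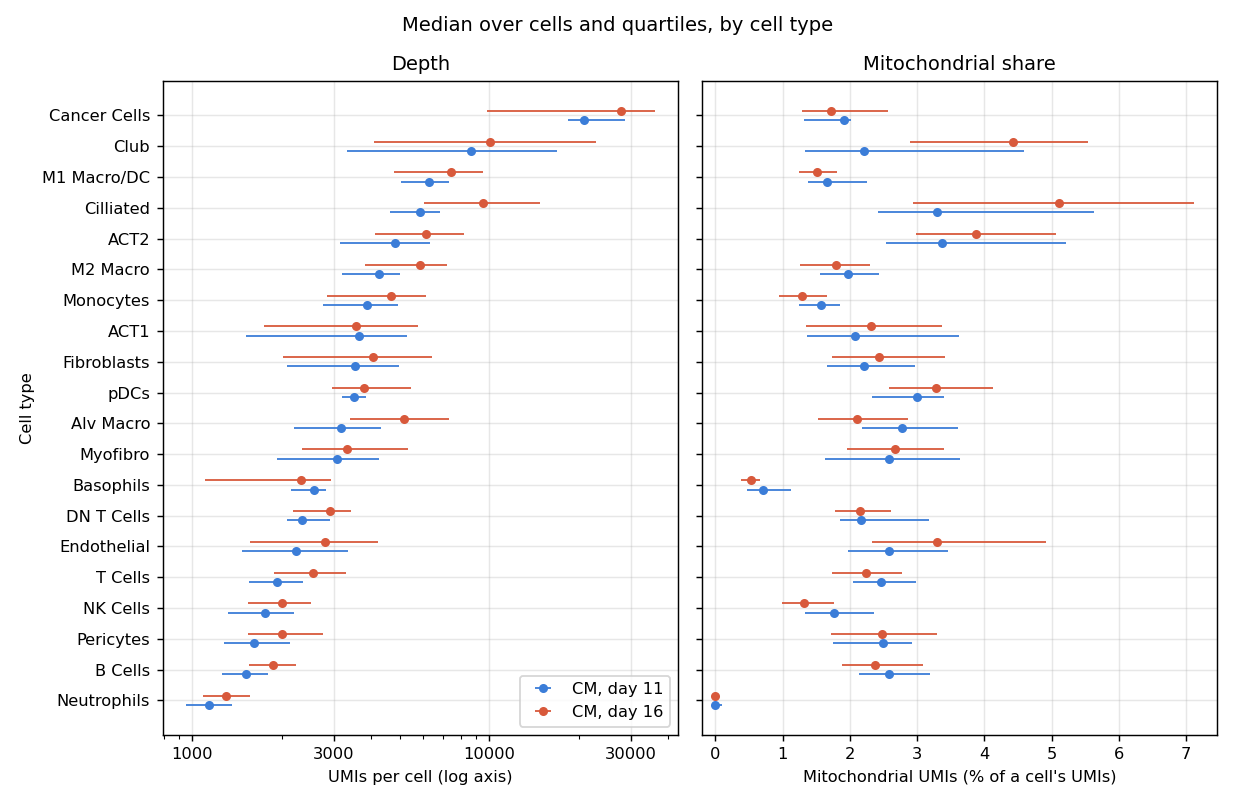
Median UMIs per cell (left, log axis) and percent of UMIs from mitochondrial genes (right) by cell type, with the quartiles over cells as lines, for CM day 11 (blue) and CM day 16 (red). The red points lie to the right of the blue ones in the left panel for 18 of 20 types, while in the right panel endothelial, ciliated and club cells lie higher at day 16 and alveolar macrophages lower.

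Beneath the types, the authors divided cells into small sub-clusters by expression. The CM cells fell into 691 of them, and 93 had at least 20 CM cells, with 3016 cells or 41.3% of the total. As a share of its own type, a sub-cluster was more than 2 times larger at day 16 in 40 of the 93 (43.0%) and more than 2 times smaller in 13 (14.0%). Of the 40, 32 also had a larger share at TSF day 16 than in both TSF day 11 libraries, and of the 13, 11 had a smaller one. Sub-clusters within 2-fold in CM could do so too, such as F.7 of B cells, with 2.04% and 4.13% at TSF day 11 and 10.4% at TSF day 16. The share over all 93 was not counted, so the 32 and the 11 are not read as agreement of the arms. The sub-clusters were defined on the expression of these same cells, so these counts describe where the authors' clustering put the cells of each library and test nothing. A sub-cluster filled mostly by 1 library may be a feature of that library, and depth differed beside it, so the sub-clusters are named by number only.

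Within a type, the cells were redistributed between the CM times by more than between TSF libraries a and b in all 16 types that had such a sub-cluster. The distance is the percent of a type's cells that would have to be moved for equal makeup, and it grows when few cells are spread over many sub-clusters. It was highest in alveolar macrophages, at 78.4% against 24.6% for a and b. It was 60.3% against 29.8% in T cells, 55.8% against 18.8% in neutrophils and 52.5% against 17.9% in endothelial cells. In B cells it was 28.9% against 13.6%. In 15 of the 16 types the distance between the CM times was also larger than that between CM day 11 and each TSF day 11 library. For endothelial cells these were 33.2% and 33.7%, and for alveolar macrophages 20.0% and 28.8%.

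Endothelial cells, for whose total share the interval of the ratio included 1, supplied 29 of the 93 sub-clusters with at least 20 CM cells, of which 16 were larger and 6 smaller at day 16. The 16 together held 103 endothelial cells at day 11 (12.0%) and 432 at day 16 (49.8%), a direction that their choice fixes. Sub-cluster B.34 had 7 and 49 cells (6.90-fold, 3.11 to 18.0), B.56 had 2 and 44 (21.7-fold, 5.65 to 184.5) and B.42 had 1 and 33 (32.5-fold, 5.44 to 1322). In the other direction B.24 had 22 and 1 and B.18 had 22 and 2. The 16 sub-clusters held 5.2% of endothelial cells in each TSF day 11 library and 31.3% at TSF day 16. Endothelial sub-clusters within 2-fold in CM could have larger TSF shares at day 16 too. For example, B.19 held 0.476% and 0.495% at TSF day 11 and 2.15% at TSF day 16. The rise in TSF is therefore not read as agreement of the arms.

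Sub-clusters that were mostly of 1 time were also found among alveolar macrophages and ACT1 cells. Sub-cluster C.12 had no cell at day 11 and 27 at day 16 (13.4% of alveolar macrophages), and the interval of its ratio starts at 5.99. It had 0, 0 and 3 cells in the TSF libraries, so 90.0% of its cells came from CM day 16. C.13 had 1 and 28 cells (24.5-fold, 4.06 to 1003) and C.7 had 3 and 19 (5.55-fold, 1.63 to 29.3), with 11 and 19 cells at TSF day 16. Among ACT1 cells, A.14 had 26 and 2 and A.16 had 1 and 24, while in TSF A.14 had 21, 23 and 5 and A.16 had 1, 2 and 9.

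Neutrophils had the greatest distance between the arms at day 16 of the 16 types. Sub-cluster G.38 had 1 cell at CM day 11 and 35 at CM day 16, and 0, 2 and 0 in the TSF libraries. G.2 had 19 and 9 cells, and 36, 39 and 0 in TSF. The distance between the day 16 libraries was 88.7%. Among lymphocytes, 23 B cell, 3 T cell and 2 NK cell sub-clusters had at least 20 CM cells. In B cells F.20 had 12 and 37 cells and F.1 had 37 and 8, and in T cells H.8 had 1 and 27.

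**Figure D5:**
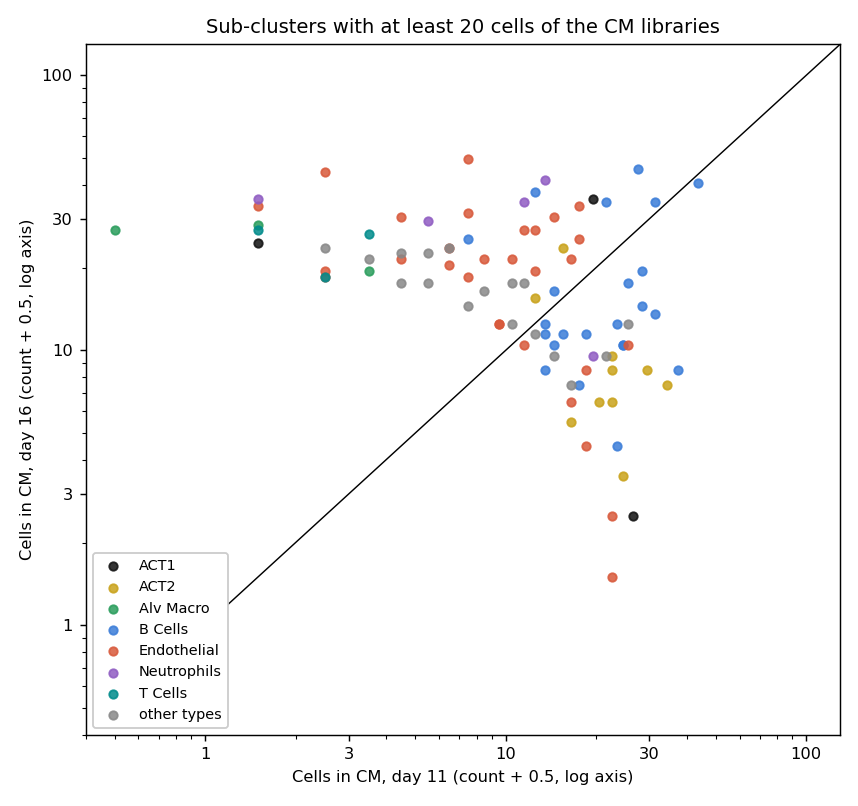
Cells of each of 93 sub-clusters in CM day 11 and CM day 16 (counts plus 0.5, both axes log), coloured by type, with the line of equal counts. Endothelial, alveolar macrophage and neutrophil points reach up to the left, such as G.38 with 1 and 35 cells, and most ACT2 points lie below the line, the type itself having fewer cells at day 16.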

How the data were processed

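Single-cell libraries (10x Genomics 5′ chemistry) were made from pooled dissociated lungs. The authors mapped reads with Cell Ranger to mm10 (GRCm38.p6) with the CD90.1 sequence added, and subtracted ambient RNA with a customised SoupX, so the deposited UMI and gene counts per cell are corrected counts. The submitters' processing notes also name Seurat 4.1.0. The deposited cell table starts at 800 UMIs and 202 genes per cell, and its mitochondrial share, a deposited percent per cell, ends at 9.99%. The authors clustered cells, named types by hand and marked doublets. Their deposited gene table for cancer cells at day 16 gives mean counts per 10000 as a score, with the number of cells with a UMI and the percent of cells, and also fold changes and p-values of TSF against CM that were not used. Gene positions are from GENCODE M21.

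Cells were counted per library and annotation in Python 3.11.15 with pandas 2.3.3. Shares have exact Clopper-Pearson intervals and ratios of shares exact conditional intervals at the 95% level (scipy 1.17.1), whose coverage was checked on simulated data. A share of 0 is given with the limit of 3 counts. Types with at least 20 cells in the CM libraries were counted as higher or lower past 1.5-fold, and sub-clusters past 2-fold within their type. All classes, all types with at least 20 cells (smaller ones as counts only) and all genes of the marker lists were to be named, with sub-clusters of at least 20 cells past 2-fold, from which the examples were chosen after their values were seen. The cell types, lists and comparisons were chosen with earlier results of these data known. Other denominators, cell filters and thresholds were tried. The cell table holds 2 more libraries (11943 cells) that no sample label here describes, and these were not used. Type names abbreviated in the table (ACT1, ACT2, LECs, DN T, M1, M2) are not spelled out there.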

Additional observations from a re-analysis of the deposited data

Results flagged for a closer look

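For 7 types the CM ratio of day 16 over day 11 lay on one side of 1 and both TSF ratios on the other. The differences, as the log2 ratio in CM minus that in TSF (mean of a and b), were 1.40 for pericytes, 0.99 for endothelial cells, 0.93 for NK cells, 0.62 for alveolar macrophages, 0.56 for T cells, 0.18 for myofibroblasts and -1.11 for M2 Macro. With 1 library per time in CM these differences were not tested. The interval of the CM ratio included 1 for endothelial cells (0.967 to 1.17), alveolar macrophages (0.973 to 1.47) and myofibroblasts (0.827 to 1.47). It lay apart from 1 for the other types named. The TSF ratios of myofibroblasts were close to 1, at 0.960 and 0.981. With granulocytes removed from all libraries, the TSF ratios of pericytes, T cells, alveolar macrophages and myofibroblasts (1.29 and 1.32) lay above 1, as in CM, those of NK cells were 1.12 and 0.973, and endothelial cells and M2 Macro kept opposite sides.

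Among the cells that the authors left without a type, code ?16 held 18 cells of CM day 16 (0.469%, 0.278 to 0.741) and no cell of CM day 11, which allows up to 0.0749%, nor of any TSF library. Code ?11 held 5 cells of CM day 16 (0.130%) and none of CM day 11.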

How the results depend on the processing

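Of the class ratios recomputed with other denominators and cell filters, 76 stayed inside the interval of the value given, 3 left it and 2 called ratios turned direction, and of the type ratios 131, 3 and 1. Most settings changed the denominator alone, which shifts all ratios by nearly the same small factor. Staying inside the interval was then almost given, and these counts do not measure robustness. Every ratio that left its interval or turned did so under a filter of cells by UMIs or mitochondrial share. All that turned did so among cells with at least 2000 UMIs, where B cells stood at 1.78 as class and as type and granulocytes at 0.831, on 25 and 23 cells. That granulocyte interval, 0.4505 to 1.53, includes 1. The same filter gave 1.00 for fibroblasts and 1.56 for the T cell class (1.57 for the type). Endothelial cells stood at 0.924 among cells with at most 5% mitochondrial UMIs. The count of types past 1.5-fold higher was 5 with at least 2000 UMIs, and that of types lower was 3 among types of at least 50 cells and 1 at a 2-fold threshold. The ratio of median UMIs over all cells was 1.03 and that of genes 1.09 with at least 2000 UMIs. Larger and smaller sub-clusters numbered 19 and 6 of 39 with at least 2000 UMIs, 9 and 2 of 19 with at least 40 cells, and 24 and 7 of 93 at 3-fold. The 40-cell and 3-fold settings, and a denominator without alveolar cells, were added after seeing the data. No paired analysis was possible because each CM time has 1 library. The intervals hold counting error only, and among the 20 types the ratio of cancer cells, with 6 at day 11, has the widest.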

Other observations

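The doublets that the authors marked made up 6.11% of cells at CM day 11 and 6.05% at CM day 16, and some of their codes differed between the times. Code ?D18 held 84 and 55 cells, ?D19 held 46 and 65, ?D17 held 18 and 5 and ?D16 held 1 and 13. In the TSF libraries ?D16 held 1, 2 and 12 cells, ?D17 held 17, 24 and 4 and ?D18 held 143, 102 and 50, each in the same direction as in CM. Code ?D19 went the other way, at 1.15% and 1.69% of cells in CM and 1.63%, 1.85% and 1.27% in TSF. So did ?D1, with 2 and 11 cells in CM and 7, 12 and 1 in TSF. The interval of the CM ratio included 1 for ?D19 (1.48, 0.997 to 2.20) and lay apart from 1 for the other doublet codes named.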
